A study of Rattus norvegicus with 30 samples.

Results

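Lungs of neonatal rats labelled 21% oxygen were compared between postnatal day 14 and postnatal day 10, the last interval sampled in that arm. The comparison used 6 of the 30 libraries of the series, chosen by their titles and treatment labels: 3 of day 10 and 3 of day 14. All genes with enough counts entered it, 17571 of the 35224 in the deposited table. The series models bronchopulmonary dysplasia, in which alveoli of infants born early fail to form properly, by keeping newborn rats in raised oxygen. Per the labels, 12 rats were assigned at random to each arm, and the model arm breathed 85% oxygen from within a day of birth while the control arm breathed 21%. The labels also state a daily exchange between the groups, made so that nursing would not differ, without saying whether dams or pups were moved. About 40 mg of lung without the trachea was taken on 5 postnatal days between day 1 and day 14, and each arm gave 15 libraries, 3 per day. Strain, sex and litter are not stated in the labels. The 15 libraries of an arm outnumber the 12 rats stated for it, and the labels do not explain this. Nor do they say that the libraries came from separate animals, so each p-value measures the spread between these libraries and not between animals.

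Rat lung passes through alveolarisation in the days covered here. Ridges called secondary septa grow into the saccules, elastin is laid down at their tips by fibroblasts, and the double capillary layer is later remodelled to a single one. Alveolar type 2 cells make surfactant, capillary endothelium consists of general capillary cells and the large flat aerocytes that face the air, and alveolar macrophages settle in the airspaces after birth. Because whole lung was sequenced, fewer cells of a type and less RNA per cell cannot be told apart.

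The 6 libraries held between 15723099 and 18074590 counts, and the 30 libraries between 14951463 and 18074590. Levels are given below as CPM, the usual library-size-scaled count, with library sizes adjusted by edgeR's TMM factors, and a change is the log2 fold change of day 14 over day 10 with its approximate standard error. The lung markers Sftpc, Scgb1a1, Ager and Cdh5 were high in all 6 libraries, at or above 365.7 CPM of the unscaled total, and Pecam1 was not analysed here. Among the 6 libraries, 3 stood apart. Day 10 replicate 2 had the lowest correlation of level with gene length, -0.434, against -0.0284 and 0.2451 in the other day 10 libraries and 0.0082 to 0.2439 at day 14. It also had the highest share of mitochondrially encoded counts, 4.32%, against 2.87% to 3.73% in the other 5. Day 10 replicate 3 held heart muscle transcripts: Myh6, the atrial myosin heavy chain, stood at 46.5 CPM there and at or below 0.553 CPM in the other 5 libraries. The airway transcript Scgb3a1 was uneven, at 0.122, 58.4 and 107 CPM in the day 10 libraries and 0.236 to 5.15 CPM at day 14. Bpifa1 stood at 8.01 CPM in day 10 replicate 3 and at or below 0.827 CPM in the other 5. Day 14 replicate 2 was the one library without the Y-linked transcripts Eif2s3y and Kdm5d, both at 0, where the other 5 held 47.4 to 79.7 CPM of each. The share of haemoglobin counts ranged from 0.656% to 1.65% at day 10 and from 0.271% to 0.975% at day 14.

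The titles of the 21%-labelled libraries begin with O and those of the 85%-labelled libraries with A. Genes that respond to raised oxygen went against the labels. Cdkn1a, the p53-induced cell cycle inhibitor p21, had a mean of 279.5 ± 39.6 CPM (SD, n = 3) in 21%-labelled libraries of day 10, where 85%-labelled libraries had 49.3 ± 6.59 CPM. The means of Cdkn1a on day 14 were 430.1 ± 42.4 CPM in the former and 29.4 ± 4.37 CPM in the latter. Gdf15, a stress-induced cytokine, had means of 286 ± 146 and 7.01 ± 1.24 CPM on day 10, the 21%-labelled arm first, and of 137 ± 19.1 and 5.04 ± 0.463 CPM on day 14. Both genes are known to be induced in rodent lung by hyperoxia, and both were higher in every 21%-labelled library of these days. The arms are therefore called by their labels throughout, and any direction drawn from an arm is that of the libraries so labelled. Within the 21%-labelled arm neither gene passed the test between the days: Cdkn1a was 0.62 ± 0.30 higher and Gdf15 1.06 ± 0.41 lower at day 14 on the log2 scale, with adjusted p = 0.228 and 0.128 in edgeR's quasi-likelihood test.

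Between day 10 and day 14, 1166 genes changed, which is 6.64% of the 17571 tested. A gene was called changed at an adjusted p under 0.05 over all genes tested (edgeR's quasi-likelihood test, Benjamini-Hochberg adjustment) and a log2 fold change of at least 0.5 in either direction. Of these, 534 rose (3.04% of the genes tested) and 632 fell (3.6%), and the median change over all genes tested was -0.03. The median size of a called change was 0.99, and 288 rises and 286 falls were of size 1 or more. In 1082 of the called genes the 3 libraries of one day lay all above those of the other, as they did in 22.9% of all genes tested. The count rests on the spread shared by all 30 libraries. When the 6 libraries were fitted alone, 34 genes were called, 33 of them among the 1166, and 2536 genes had an unadjusted p under 0.05. It also rests on single libraries, since 514 genes were called without day 10 replicate 2 and 622 without day 14 replicate 2, against 785 to 991 without any one of 3 others and 1695 without day 10 replicate 3. With both replicates numbered 2 left out, 269 genes were called, 260 of them among the 1166. Of the 105 genes chosen by the rules for naming, 100 were called, and 46 of these were still called in that last fit. When the 6 libraries were fitted alone, 4 of the 99 of them tested there were called, and 0 of 99 with a block for the replicate number.

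The 10 largest rises described first are those of called genes whose days did not overlap and whose mean log2 CPM reached 3. Chia, the secreted acidic mammalian chitinase (ENSRNOG00000033162, chromosome 2, 208749996 to 208797402 on the plus strand as the deposited table gives it, on a build that the sources used here do not name), stood at 15.8, 11.9 and 9.50 CPM at day 10 and at 208, 728 and 159 CPM at day 14. The change of Chia was 4.88 ± 0.58 (adjusted p = 2.23e-05, edgeR's quasi-likelihood test). Esm1, the proteoglycan endocan that sprouting endothelial tip cells secrete (chromosome 2, 45104305 to 45113131), stood at 13.4, 3.68 and 13.6 CPM and then at 280, 60.9 and 126 CPM. Its change was 3.93 ± 0.49 (adjusted p = 2.83e-05, same test). Retnla, resistin-like molecule alpha, a secreted product of epithelium and macrophages in type 2 immune responses of the mouse (chromosome 11, 54543731 to 54545230), rose from 16.5, 7.08 and 11.0 CPM to 75.0, 210 and 61.0 CPM, by 3.32 ± 0.57 (adjusted p = 0.000619).

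The next rises by size under this rule included Grem1, Frzb and Sfrp1. Grem1, which binds and blocks bone morphogenetic proteins, stood at 2.11, 1.59 and 5.78 CPM at day 10 and at 10.5, 83.2 and 11.7 CPM at day 14. The rise of 3.47 ± 0.64 (adjusted p = 0.00119, edgeR's quasi-likelihood test) was 1.85 without day 14 replicate 2, the library at 83.2 CPM. Frzb and Sfrp1, secreted proteins that bind Wnt ligands, rose by 3.40 ± 0.59 and 3.24 ± 0.68 (adjusted p = 0.000707 and 0.00345). Frzb stood at 6.86, 6.85 and 34.1 CPM at day 10, where replicate 3 was highest, and at 124, 181 and 199 CPM at day 14. The remaining members of the 10 largest rises were Cfi, the complement factor I protease (3.23), Cd163, the haemoglobin scavenger receptor of macrophages (3.18), Lypd1 (2.94) and Kng1, the precursor of bradykinin (2.83). The rat has close relatives of Kng1, and the sources used here do not say how reads were divided between them, so its level is uncertain. Day 14 replicate 2 held the highest day 14 level in 7 of these 10 genes. Without it all 10 were still called, and Chia rose by 3.92 and Retnla by 2.59. With day 10 replicate 2 also left out, Grem1, Retnla, Sfrp1 and Kng1 did not pass, with adjusted p of 0.2012, 0.06569, 0.2078 and 0.1095.

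**Figure D1:**
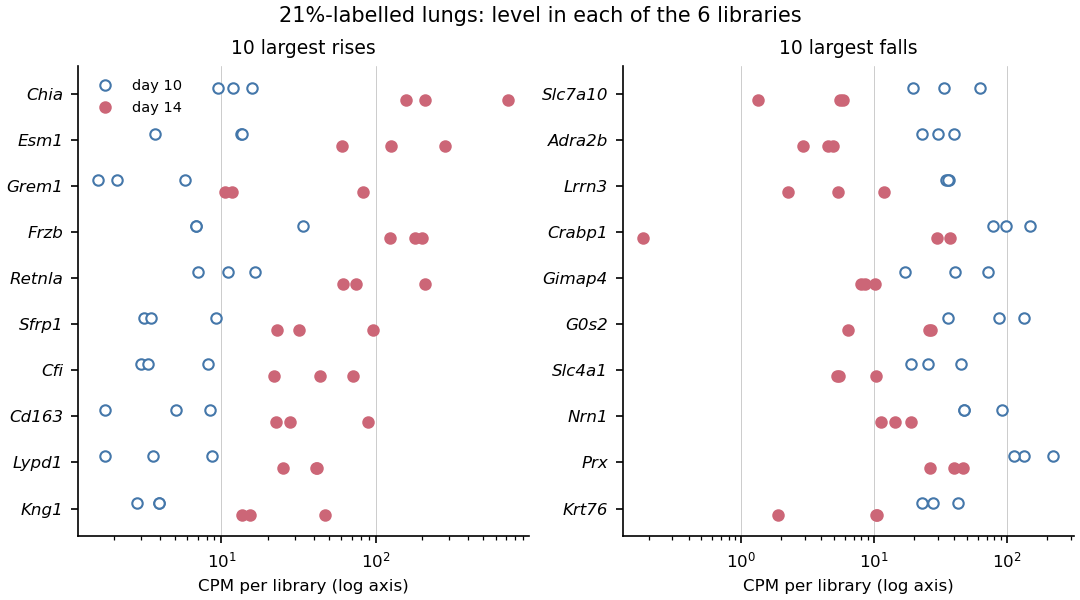
CPM (log axis) of the 10 genes with the largest rises and the 10 with the largest falls, 1 point per library, open blue for day 10 and filled red for day 14. In each gene the 3 points of one day lie clear of those of the other, as the rule for choosing the genes required. The spread within a day is widest where 1 library stands out, as for Grem1 at day 14 (10.5 to 83.2 CPM) and Crabp1 at day 14 (0.182 to 37.1 CPM).

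The largest falls, by the same rule and so without overlap of the days, included a transporter, a receptor and a capillary protein. Slc7a10, a transporter of small neutral amino acids (chromosome 1, 91433030 to 91448564), stood at 33.7, 62.3 and 19.7 CPM at day 10 and at 5.83, 1.33 and 5.56 CPM at day 14. It fell by 3.18 ± 0.41 on the log2 scale (adjusted p = 3.94e-05, edgeR's quasi-likelihood test). Adra2b, the alpha-2B adrenergic receptor (chromosome 3, 119805941 to 119809987), stood at 30.3, 40.0 and 22.7 CPM and then at 4.89, 2.91 and 4.46 CPM. It fell by 2.92 ± 0.24 (adjusted p = 1.25e-07) and was among the 34 genes called in the 6 libraries alone, with adjusted p = 0.03452 there. Prx, periaxin, first known from the myelin of peripheral nerve and found in capillary endothelium of the lung (chromosome 1, 84304228 to 84324560), stood at 134, 222 and 113 CPM and then at 26.4, 39.5 and 46.5 CPM. The fall of Prx was of 2.06 ± 0.21 (adjusted p = 4.19e-06 in the same test, log2 change -2.06).

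The other members of the 10 largest falls by the same rule were Lrrn3, a leucine-rich repeat protein of the membrane (-2.46), Crabp1, which binds retinoic acid in the cytoplasm (-2.28), Gimap4, a GTPase of lymphocytes (-2.27), G0s2, an inhibitor of the fat lipase ATGL (-2.13), Slc4a1, the band 3 anion exchanger of red cells (-2.09), Nrn1, neuritin (-2.07), and Krt76, a type II keratin (-2.05). Lrrn3 was even at day 10, at 34.8, 36.4 and 35.8 CPM, and stood at 5.33, 2.24 and 11.9 CPM at day 14. Day 10 replicate 2 held the highest day 10 level in all 10 of the largest falls, and day 14 replicate 2 the lowest day 14 level in 7. Without day 10 replicate 2, the calls of Crabp1 and Nrn1 were lost (adjusted p = 0.154 and 0.142) and the other 8 were kept. Crabp1 was also lost without day 10 replicate 1 (0.0631) or day 14 replicate 1 (0.0537), and Nrn1 without day 14 replicate 1 (0.0812) or replicate 2 (0.0881). With both replicates numbered 2 left out, Gimap4, G0s2, Slc4a1 and Nrn1 did not pass, with adjusted p of 0.06825, 0.08765, 0.1201 and 0.3102.

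Of 26 macrophage markers tested, 16 rose, 10 were not called and none fell, with a median change of 0.83, where 3.04% of all genes rose and the median of all genes was -0.03. Their summed level was 5572 to 8099 CPM at day 10 and 11096 to 12530 CPM at day 14. Mrc1, the mannose receptor CD206 (chromosome 17, 81352700 to 81433743), stood at 96.9, 56.5 and 108 CPM at day 10 and at 186, 317 and 235 CPM at day 14. The days did not overlap, and it rose by 1.496 ± 0.20 (adjusted p = 6.23e-05, edgeR's quasi-likelihood test). Cd163 stood at 5.10, 1.76 and 8.47 CPM and then at 22.4, 88.7 and 27.9 CPM (adjusted p = 0.000239), so that day 14 replicate 2 held the highest level. C1qb, a chain of the complement component C1q, was closer within each day, at 46.0, 44.0 and 53.3 CPM and then at 80.2, 101 and 104 CPM, and rose by 0.99 ± 0.20 (adjusted p = 0.00275). Csf1r, the receptor for the macrophage growth factor CSF1, rose by 0.67 ± 0.14 (adjusted p = 0.00336). The number of members that rose was 10 to 14 when any one library other than day 10 replicate 2 was left out, 7 without that replicate, and 2 without it and day 14 replicate 2. The median change of the 26 markers was 0.80 in that last fit.

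The other leukocyte lists described here were short, and few members of each were called. The share of members that rose was still above the 3.04% of all genes in each list, and 3.6% of all genes fell. Of 11 effectors of type 2 immunity tested, 2 rose, Chia and Retnla described above, and none fell. Of 13 neutrophil markers, 2 rose: Lcn2, the iron-siderophore binding lipocalin 2, which epithelium also makes, went from 50.01, 43.7 and 55.6 CPM to 208, 401 and 174 CPM (2.39 ± 0.44, adjusted p = 0.00129), and Retnlg rose from 0.459 ± 0.146 to 3.75 ± 1.97 CPM. Lcn2 was among the 34 genes called in the 6 libraries alone. Of 9 mast cell markers, 7 lay above 0 and their median change was 0.84 (0.44 without day 14 replicate 2), but 1 rise was called. The 2 below 0, Gata2, a transcription factor of haematopoietic and endothelial cells, and Kit, the stem cell factor receptor, both fell, by 0.94 ± 0.16 (adjusted p = 0.000771) and 0.97 ± 0.28 (adjusted p = 0.0318). The mast cell tryptase Tpsab1, named because 1 member rose, changed by 1.90. Kit is also expressed by general capillary cells, its libraries overlapped between the days, and its call was lost without day 10 replicate 1 (adjusted p = 0.186), day 10 replicate 2 (0.116), day 14 replicate 1 (0.142) or day 14 replicate 3 (0.0895). Tpsab1 was not called without any one library other than day 14 replicate 3.

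Of 26 surfactant and lipid genes of alveolar type 2 cells tested, 8 rose, 18 were not called and none fell. Their median was 0.59, where 3.04% of all genes rose. Sftpa1, surfactant protein A (chromosome 16, 18716019 to 18719403), stood at 1243, 1321 and 902 CPM at day 10 and at 2908, 2916 and 3012 CPM at day 14. The day 14 libraries were nearly level and all above day 10, and the change was 1.35 ± 0.20 (adjusted p = 0.000165). Acsl4, which activates long-chain polyunsaturated fatty acids, stood at 112, 83.2 and 169 CPM and then at 234, 260 and 247 CPM (1.02 ± 0.20, adjusted p = 0.00184). Cebpa, a transcription factor of type 2 cell maturation, and Fasn, fatty acid synthase, rose by 0.84 ± 0.17 and 0.89 ± 0.20 (adjusted p = 0.0025 and 0.00634). Sftpc, surfactant protein C and the most specific type 2 product, did not pass: it stood at 8532, 14404 and 5888 CPM at day 10 and at 11564, 9594 and 12397 CPM at day 14, so the days overlapped (0.22 ± 0.33, adjusted p = 0.758). The 8 called members became 5 without day 14 replicate 3, 4 without day 10 replicate 2 or without day 14 replicate 2, and 2 without both of the replicates numbered 2.

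In the other epithelial lists few members were called, where 3.04% of all genes rose and 3.6% fell. The alveolar type 1 and ciliated counts were near these shares, and the airway secretory rises were above them. Of 21 alveolar type 1 markers, 1 rose: Col4a4, a basement membrane collagen chain, by 0.67 ± 0.20 (adjusted p = 0.0412), a call lost without day 10 replicate 1 (adjusted p = 0.0878), day 10 replicate 2 (0.241), day 14 replicate 1 (0.0515) or day 14 replicate 2 (0.230). Their median change was 0.05, and -0.02 to 0.22 with 1 library left out. Of 14 airway secretory markers, 2 rose and none was called lower, with changes from -4.63 to 5.73. Hp, haptoglobin, stood at 22.6, 30.5 and 25.5 CPM and then at 69.8, 79.5 and 42.6 CPM, with no overlap (1.29 ± 0.24, adjusted p = 0.00122). Pon1, paraoxonase 1, stood at 0.0586 to 0.170 CPM at day 10 and at 2.26, 15.9 and 1.28 CPM at day 14, the highest in replicate 2. Of 24 ciliated cell markers, 1 fell, Tppp3, a microtubule-bundling protein, by 0.88 ± 0.22 (adjusted p = 0.0144), a call lost without day 10 replicate 1 (0.0598), day 10 replicate 2 (0.182) or day 14 replicate 2 (0.135).

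Of 20 pan-endothelial markers, 5 fell and 2 rose, with a median of -0.33, where 3.6% of all genes fell. Cdh5, VE-cadherin of the adherens junction, stood at 573, 687 and 547 CPM at day 10 and at 366, 376 and 427 CPM at day 14. All day 14 libraries lay below day 10, and the change was -0.63 ± 0.12 (adjusted p = 0.00159, edgeR's quasi-likelihood test). Egfl7, a secreted endothelial matrix protein, stood at 358, 477 and 212 CPM and then at 122, 152 and 168 CPM (-1.25 ± 0.24, adjusted p = 0.00184). Emcn, the sialomucin endomucin, changed by -1.25 ± 0.27 (adjusted p = 0.00434, and 0.0602 without day 10 replicate 2). Ramp2, the adrenomedullin co-receptor, changed by -0.91 ± 0.25 (adjusted p = 0.0266), a call that was lost on leaving out any single library except day 10 replicate 3, with adjusted p from 0.0774 to 0.292. The 2 that rose, named because of their small number, were Vwf, von Willebrand factor (0.95), and Nos3, the endothelial nitric oxide synthase (0.64). Without day 10 replicate 2 the list had 2 falls and no rise, without day 14 replicate 1 it had 3 falls and no rise, without day 10 replicate 1 or day 14 replicate 2 it had 3 falls and 1 rise, and without day 14 replicate 3 it had 4 falls and 1 rise. With both replicates numbered 2 left out none of the 20 was called.

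Aerocyte and general capillary markers, 13 of each, had median changes of -0.12 and -0.09, and the lists were not tested against each other. Of the aerocyte markers, 4 fell and 1 rose, where 3.6% of all genes fell and 3.04% rose. After Prx, the genes with the smallest p were Fibin, which rose, Nrp1 and Tbx2. Fibin, a secreted protein, stood at 144, 151 and 120 CPM and then at 240, 201 and 241 CPM (0.72 ± 0.17, adjusted p = 0.0112). Nrp1, a co-receptor of VEGF and semaphorins, stood at 366, 327 and 402 CPM and then at 188, 274 and 280 CPM (-0.56 ± 0.15, adjusted p = 0.0193). Neither gene overlapped between the days, yet Nrp1 lost its call without day 10 replicate 1 (adjusted p = 0.0732), day 10 replicate 3 (0.0663) or day 14 replicate 1 (0.127). Tbx2, a T-box transcription factor of lung mesenchyme as well as aerocytes, changed by -0.93 ± 0.25 (adjusted p = 0.0217) and lost its call without day 10 replicate 1 (0.0806), day 10 replicate 2 (0.132), day 14 replicate 1 (0.0867) or day 14 replicate 2 (0.117). The aerocyte falls numbered 1 without day 10 replicate 1 or day 14 replicate 1 and 2 without day 10 replicate 2. Of the general capillary markers, 2 rose and 1 fell, the last being Kit. Edn1, endothelin 1, a vasoconstrictor peptide, stood at 22.6, 13.03 and 23.6 CPM and then at 74.9, 37.9 and 37.2 CPM (1.34 ± 0.33, adjusted p = 0.0133), and lost its call without day 10 replicate 2 (0.108) or day 14 replicate 1 (0.113). Lpl, lipoprotein lipase, rose by 0.94 ± 0.26 (adjusted p = 0.0238) and lost its call without day 10 replicate 2 (0.135), day 14 replicate 1 (0.0749) or day 14 replicate 3 (0.105). Kdr, the VEGF receptor 2, which is highest in aerocytes, stood at 342, 331 and 391 CPM and then at 139, 227 and 257 CPM. The days of Kdr did not overlap, but its change of -0.77 ± 0.24 did not pass (adjusted p = 0.0540).

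Among the 19 genes of VEGF and angiopoietin signalling, 2 rose and 3 fell, where 3.04% of all genes rose and 3.6% fell. The rises were Esm1 and Pgf, placental growth factor, a ligand of VEGF receptor 1. Pgf stood at 7.86, 8.61 and 8.19 CPM and then at 13.5, 29.4 and 13.7 CPM (1.20 ± 0.27, adjusted p = 0.00717), and its rise was 0.77 without day 14 replicate 2 (adjusted p = 0.1003). The falls were Nrp1, the Notch ligand Dll4 of tip cells (-1.07) and the lymphatic growth factor Vegfd (-0.77), the last 2 named because of their small number. Without day 10 replicate 1, day 10 replicate 2 or day 14 replicate 1, the falls in the list numbered 1.

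Pericyte markers included a pair of subunits that fell together. Of 14 tested, 4 fell and 1 rose, where 3.6% of all genes fell and 3.04% rose. Gucy1a1, the alpha-1 subunit of soluble guanylate cyclase, the nitric oxide receptor (chromosome 2, 181045703 to 181102918), stood at 188, 208 and 168 CPM at day 10 and at 72.4, 81.5 and 105 CPM at day 14. Every day 14 library was below every day 10 library, and the change was -1.13 ± 0.14 (adjusted p = 2.35e-05). Its partner Gucy1b1, the beta-1 subunit, stood at 120, 108 and 108 CPM and then at 59.6, 68.6 and 89.6 CPM (-0.62 ± 0.16, adjusted p = 0.0162). Gucy1b1 lost its call without day 10 replicate 1 (adjusted p = 0.0975), day 10 replicate 2 (0.0569), day 14 replicate 1 (0.105) or day 14 replicate 2 (0.113), and Gucy1a1 was called in each of these fits. Cox4i2, the oxygen-regulated isoform of a cytochrome c oxidase subunit, and Ndufa4l2, a mitochondrial protein induced by hypoxia, changed by -1.50 ± 0.30 and -1.41 ± 0.28 (adjusted p = 0.00255 and 0.00249). The libraries of Ndufa4l2 overlapped between the days, and its call was lost without day 10 replicate 2 (0.0535). The 1 rise, named because it was the only one, was Abcc9, a subunit of the potassium channel of pericytes and muscle (1.16). Abcc9 was not called without day 10 replicate 1, day 10 replicate 2 or day 14 replicate 2, and the falls numbered 2 without day 10 replicate 2. Without day 10 replicate 3 the rises numbered 2.

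Smooth muscle and fibroblast lists changed in few members, where 3.04% of all genes rose and 3.6% fell. The smooth muscle rises and the fibroblast falls were above these shares. Of 17 smooth muscle markers, 2 rose, with a median of 0.45 (0.92 without day 10 replicate 3). Lmod1, leiomodin 1 of the actin filament, stood at 27.6, 27.2 and 31.9 CPM and then at 54.0, 59.8 and 53.4 CPM, with no overlap (0.95 ± 0.16, adjusted p = 0.000531). Des, desmin, stood at 62.7, 75.8 and 177 CPM and then at 241, 356 and 133 CPM, which overlap, and heart muscle also expresses it. The highest day 10 level of Des was in replicate 3, the library with heart transcripts. Without that library Des rose by 1.84 against 1.21 ± 0.35 with it (adjusted p = 0.0358), and 7 smooth muscle markers rose. Its call was lost without day 10 replicate 1 (adjusted p = 0.154), day 10 replicate 2 (0.194), day 14 replicate 1 (0.0678) or day 14 replicate 2 (0.238). The 11 heart muscle markers tested summed to 56.8, 79.9 and 270.2 CPM at day 10 and to 155, 80.2 and 44.3 CPM at day 14, none was called, and their part in these values was otherwise not tested. Of 22 fibroblast markers, 4 fell and 1 rose, with a median of 0.01, which was -0.06 to 0.19 with 1 library left out. Fgf10, the mesenchymal growth factor of lung budding and lipofibroblasts, was even at day 10, at 16.9, 17.0 and 16.8 CPM, and stood at 25.9, 32.4 and 40.1 CPM at day 14 (0.95 ± 0.18, adjusted p = 0.00141). Besides Slc7a10, Enpep, the aminopeptidase that cleaves angiotensin II, changed by -0.70 ± 0.16 (adjusted p = 0.00655) and Wnt2, a mesenchymal Wnt ligand, by -0.92 ± 0.24 (adjusted p = 0.0179). Enpep lost its call without day 14 replicate 2 (0.0711, change -0.45), and Wnt2 without day 10 replicate 1 (0.0897), day 10 replicate 3 (0.0694) or day 14 replicate 2 (0.171). The fibroblast falls numbered 2 without day 14 replicate 2, and the rises 2 without day 10 replicate 3.

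Elastic fibre genes changed in both directions, where 3.04% of all genes rose and 3.6% fell. Of 19 genes tested, 5 rose and 4 fell, with a median of 0.30 (0.19 without day 10 replicate 2 and 0.03 without both replicates numbered 2). Eln, tropoelastin, the elastic core protein (chromosome 12, 24978483 to 25021863), stood at 7751, 7833 and 8576 CPM at day 10 and at 14034, 16899 and 13838 CPM at day 14. All day 14 libraries lay well above day 10, and Eln rose by 0.89 ± 0.15 (adjusted p = 0.000619). Ltbp2, a fibrillin-binding protein of the microfibrils, stood at 648, 549 and 756 CPM and then at 1071, 1969 and 1317 CPM (1.16 ± 0.16, adjusted p = 7.32e-05). Other parts of the fibre were lower: Fbln5, fibulin 5, which tethers elastin to cells and microfibrils, stood at 656, 531 and 586 CPM and then at 391, 240 and 299 CPM (-0.93 ± 0.15, adjusted p = 0.000447). Mfap2, the microfibril-associated glycoprotein MAGP1, went from 202, 252 and 143 CPM to 74.3, 63.6 and 93.7 CPM (-1.37 ± 0.22, adjusted p = 0.000404). None of these 4 genes overlapped between the days, and each was called on leaving out any one of the 6 libraries. The list's 5 rises were 3 without day 10 replicate 2 or day 14 replicate 2 and 8 without day 10 replicate 3.

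Of 27 collagens and genes of collagen processing tested, 7 rose, 20 were not called and none fell. Their median was 0.56, where 3.04% of all genes rose and 3.6% fell. Col18a1, whose C-terminal fragment is endostatin, stood at 158, 130 and 199 CPM and then at 483, 505 and 324 CPM (1.43 ± 0.18, adjusted p = 3.42e-05). Plod2, the lysyl hydroxylase of collagen telopeptides, stood at 151, 103 and 228 CPM and then at 356, 543 and 401 CPM (1.43 ± 0.21, adjusted p = 0.00018). P4ha2, a prolyl 4-hydroxylase subunit, and Bgn, the proteoglycan biglycan, rose by 0.97 ± 0.16 and 0.88 ± 0.15 (adjusted p = 0.000548 and 0.000717), also with no overlap between the days. The count was 4 without day 10 replicate 1, day 10 replicate 2 or day 14 replicate 2, 10 without day 10 replicate 3, where the median was 0.91, and 3 without both replicates numbered 2, where it was 0.20. Of 22 metalloproteinases and inhibitors, 4 rose and 1 fell. Adamts1 and Adamts4, proteases of the proteoglycans versican and aggrecan, rose by 1.67 ± 0.20 and 1.97 ± 0.24 (adjusted p = 2.02e-05 and 2.35e-05). Adamts4 stood at 9.85, 8.38 and 17.5 CPM and then at 38.5, 55.0 and 47.0 CPM, with no overlap. Mmp2, gelatinase A, and Adamts2, the procollagen N-proteinase, rose by 0.86 ± 0.15 and 1.26 ± 0.24 (adjusted p = 0.000832 and 0.00166). The fall, named because it was the only one, was Mmp12, the macrophage metalloelastase (-2.07), which was not called without day 10 replicate 1, day 14 replicate 2 or day 14 replicate 3. The metalloproteinase rises numbered 8 without day 10 replicate 3.

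In developmental growth factor signalling 4 of 26 genes rose and 2 fell, where 3.04% of all genes rose and 3.6% fell. The smallest p was that of Fgfr4, an FGF receptor (chromosome 17, 9990078 to 10004321), at 118, 146 and 72.6 CPM and then at 37.1, 15.2 and 35.3 CPM. It did not overlap between the days and changed by -1.94 ± 0.25 (adjusted p = 3.94e-05). Fgf10, a ligand of FGF receptor 2, was the rise with the smallest p.

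Of 38 genes of mitotic cell division tested, 12 fell and none rose, with a median of -0.62. Of 27 DNA replication genes, 12 fell and none rose, with a median of -0.60, where 3.6% of all genes fell. The summed level of the mitotic list was 1827, 2050 and 1885 CPM at day 10 and 1237, 1052 and 1402 CPM at day 14, so the days did not overlap. Cdk1, the mitotic cyclin-dependent kinase, stood at 108, 171 and 82.1 CPM and then at 60.5, 38.1 and 65.6 CPM (-1.14 ± 0.31, adjusted p = 0.0216). Mad2l1, of the spindle checkpoint, stood at 26.4, 29.4 and 30.2 CPM and then at 15.5, 15.1 and 17.8 CPM (-0.83 ± 0.20, adjusted p = 0.0119). Tpx2, a spindle assembly factor, and Prc1, which bundles microtubules of the central spindle, changed by -0.84 ± 0.20 and -0.75 ± 0.20 (adjusted p = 0.00862 and 0.0202). Mki67, the proliferation marker Ki-67, stood at 138, 184 and 154 CPM and then at 98.0, 90.3 and 108 CPM (-0.68 ± 0.21, adjusted p = 0.0421), and its call was lost without any one of the 6 libraries (adjusted p from 0.0586 to 0.244). The mitotic count was sensitive to single libraries. It was 3 without day 10 replicate 1, 1 without day 10 replicate 2, 3 without day 14 replicate 1, 0 without day 14 replicate 2 and 9 without either of the other 2, while the median stayed between -0.50 and -0.67. Tpx2, Mad2l1 and Cdk1 lost their calls without day 10 replicate 2 (adjusted p = 0.0843, 0.0580 and 0.244) or day 14 replicate 2 (0.0728, 0.0793 and 0.169), and Prc1 also without replicate 1 of either day (0.0532 to 0.168 over these 4).

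The replication genes with the smallest p were Cdt1, which licenses origins, Chaf1b, a chromatin assembly subunit, Cdc45, a part of the replicative helicase, and Mcm3, a subunit of the same helicase. Cdt1 stood at 33.8, 39.3 and 31.8 CPM at day 10 and at 17.0, 16.4 and 17.8 CPM at day 14. Its libraries were tight within each day and apart between them, and it changed by -1.04 ± 0.18 (adjusted p = 0.000697). Chaf1b, Cdc45 and Mcm3 changed by -1.01 ± 0.21, -0.93 ± 0.20 and -0.81 ± 0.18 (adjusted p = 0.00321, 0.00434 and 0.00499). Cdt1 and Chaf1b were called without any one of the 6 libraries, Cdc45 was not called without day 10 replicate 2 (0.06001) and Mcm3 not without day 14 replicate 2 (0.0559). The list had 4 falls without day 10 replicate 2, 3 without day 14 replicate 2 and 1 without both.

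Promoters of mitotic genes are known to carry the CCAAT box, which NF-Y binds, and the cell cycle homology region, which the DREAM complex and the B-Myb complex bind. Windows of 300 bases around gene starts, from 250 before to 50 after, were read from RefSeq on build GRCr8 for the genes of the mitotic list, of which 33 of 38 were found. CCAAT on either strand was present in 23 of the 33 (69.7%), against 37.5% of all 33469 windows. TTTGAA on either strand was also present in 23 of the 33 (69.7%), against 18.3% of all windows. The motifs share no overlapping bases in the windows shown. The windows of Prc1 (chr1:143659231-143659530, plus strand), Cdk1 (chr20:19265043-19265342, plus strand) and Mad2l1 (chr4:97236259-97236558, plus strand) are given 5′ to 3′ because these genes, with Tpx2, were the called members with the smallest p, with both motifs in capitals, ATTGG being CCAAT on the other strand.
Prc1: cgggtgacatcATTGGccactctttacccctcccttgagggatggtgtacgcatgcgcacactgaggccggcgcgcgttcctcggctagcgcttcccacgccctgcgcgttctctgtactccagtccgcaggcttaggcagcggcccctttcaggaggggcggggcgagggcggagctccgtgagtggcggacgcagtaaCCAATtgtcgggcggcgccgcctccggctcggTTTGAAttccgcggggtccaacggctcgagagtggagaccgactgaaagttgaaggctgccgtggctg
Cdk1: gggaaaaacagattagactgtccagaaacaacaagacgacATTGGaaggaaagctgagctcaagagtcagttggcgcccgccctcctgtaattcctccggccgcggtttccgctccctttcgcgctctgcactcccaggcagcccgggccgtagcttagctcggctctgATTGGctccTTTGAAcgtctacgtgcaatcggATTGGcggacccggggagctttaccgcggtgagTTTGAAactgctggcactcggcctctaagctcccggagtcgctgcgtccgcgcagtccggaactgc
Mad2l1: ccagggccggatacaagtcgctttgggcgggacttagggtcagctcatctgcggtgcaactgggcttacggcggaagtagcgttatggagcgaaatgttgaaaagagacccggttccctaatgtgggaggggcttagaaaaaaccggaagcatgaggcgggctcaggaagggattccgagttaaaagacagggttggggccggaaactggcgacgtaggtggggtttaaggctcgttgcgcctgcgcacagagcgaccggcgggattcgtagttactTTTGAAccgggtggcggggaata
The Prc1 window held 2 CCAAT boxes and 1 TTTGAA, the Cdk1 window 3 and 2, and the Mad2l1 window no CCAAT box and 1 TTTGAA. A match describes these letters and not a bound site.

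Glucocorticoid response genes changed in both directions. Of 16 tested, 7 rose and 2 fell, with a median of 0.95, where 3.04% of all genes rose and 3.6% fell. Mt2A, metallothionein 2, which binds zinc and copper and is induced by metals and glucocorticoids (chromosome 19, 11307967 to 11308740 in the deposited table), stood at 8.68, 12.0 and 9.10 CPM at day 10 and at 39.4, 52.1 and 79.7 CPM at day 14. The days were far apart, and it rose by 2.52 ± 0.46 (adjusted p = 0.000984), a call also made in the 6 libraries alone. Hsd11b2, the enzyme that inactivates corticosterone in the rat, stood at 6.45, 12.6 and 5.32 CPM and then at 1.82, 1.15 and 1.16 CPM (-2.56 ± 0.33, adjusted p = 3.49e-05). Errfi1, a feedback inhibitor of the EGF receptor, rose by 1.06 ± 0.20 (adjusted p = 0.00122), with overlapping libraries. The RefSeq window of Mt2A (chr19:10838659-10838958 on build GRCr8, minus strand) is shown because metallothionein promoters are known for metal response elements, with matches to TGCACNC or TGCGCNC on either strand in capitals.
Mt2A: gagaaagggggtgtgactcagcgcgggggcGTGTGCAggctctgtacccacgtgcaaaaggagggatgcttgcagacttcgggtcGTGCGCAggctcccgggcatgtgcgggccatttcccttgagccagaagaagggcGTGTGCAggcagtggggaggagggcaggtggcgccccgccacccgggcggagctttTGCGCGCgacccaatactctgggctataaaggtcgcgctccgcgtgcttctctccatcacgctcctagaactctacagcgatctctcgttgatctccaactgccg
It held 4 matches, 2 of each motif, and at least 1 match was present in 24.2% of all windows. With both replicates numbered 2 left out, 1 glucocorticoid response gene rose and 1 fell, and without day 10 replicate 2 alone 5 rose and 1 fell.

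Immediate early genes are transcribed within minutes of a stimulus and also during tissue dissection. Of 21 tested, 6 rose and none fell, with a median of 0.55, where 3.04% of all genes rose. Junb, an AP-1 subunit, stood at 102, 121 and 120 CPM at day 10 and at 227, 138 and 296 CPM at day 14 (0.95 ± 0.22, adjusted p = 0.00828). Zfp36, which destabilises cytokine mRNA, stood at 69.2, 90.6 and 99.1 CPM and then at 122, 140 and 285 CPM (1.0798 ± 0.26, adjusted p = 0.0102). In both genes day 14 replicate 3 was highest, and both lost their calls without it (adjusted p = 0.0676 for Junb and 0.115 for Zfp36, whose rise was then 0.62). Egr1, a zinc finger transcription factor, and Dusp1, a phosphatase of MAP kinases, rose by 1.078 ± 0.26 and 0.84 ± 0.23 (adjusted p = 0.0121 and 0.0222). Without day 14 replicate 3 only 1 member of the list was called, without day 10 replicate 1 or replicate 2 there were 2, without day 14 replicate 1 there were 4, and the part of tissue handling in these values was not tested. Egr1 lost its call without day 10 replicate 2 (0.0964), day 14 replicate 1 (0.0537) or day 14 replicate 3 (0.0741), Dusp1 without day 10 replicate 1 (0.0859), day 10 replicate 2 (0.118) or day 14 replicate 3 (0.106), and Zfp36 also without day 10 replicate 1 (0.0543).

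In the stress lists few members were called, where 3.04% of all genes rose and 3.6% fell. Of 26 NRF2 and antioxidant genes 3 rose, and of 25 genes of ATF4 and the unfolded protein response 1 rose. Of 14 heat shock genes 2 rose, of 27 hypoxia and glycolysis genes 1 rose, and of 21 p53 targets 1 rose and 1 fell. The ATF4, hypoxia and p53 counts were near the shares over all genes, and the NRF2 and heat shock rises were above them. The NRF2 rises numbered 1 without day 10 replicate 1, day 10 replicate 2 or day 14 replicate 3 and 5 without day 10 replicate 3, and without this last library 3 hypoxia genes, 2 ATF4 genes and 2 p53 targets rose. Gpx3, the secreted glutathione peroxidase, stood at 113, 206 and 127 CPM and then at 365, 637 and 369 CPM, with no overlap (1.62 ± 0.26, adjusted p = 0.000341). Slc7a11, the cystine transporter, rose from 1.67 ± 1.18 to 6.33 ± 1.99 CPM (adjusted p = 0.0286). Slc7a5, a large neutral amino acid transporter, was the ATF4 member (0.92 ± 0.26, adjusted p = 0.0269). Both transporters lost their calls without day 10 replicate 1 or replicate 2 or without day 14 replicate 2 or replicate 3, with adjusted p of 0.0834 to 0.161 for Slc7a11 and 0.0748 to 0.165 for Slc7a5. Hsph1, the chaperone HSP105, stood at 71.1, 64.7 and 122 CPM and then at 184, 197 and 207 CPM, with no overlap (1.19 ± 0.26, adjusted p = 0.00537). Bag3, a co-chaperone of HSP70, rose by 0.68 ± 0.18 (adjusted p = 0.0205, 0.0682 without day 10 replicate 1 and 0.126 without day 14 replicate 2). Pfkfb3, which makes the glycolytic activator fructose 2,6-bisphosphate, rose by 1.26 ± 0.24 (adjusted p = 0.00184), although day 14 replicate 1 at 99.9 CPM lay within the day 10 range. Of the p53 targets, Plk2, a stress-induced kinase, changed by -0.75 ± 0.16 (adjusted p = 0.00451) and Pmaip1, the BH3-only protein NOXA, by 0.95 ± 0.26 (adjusted p = 0.0276). Plk2 was not called without replicate 2 of day 10 or of day 14 (0.0792 and 0.0607), nor Pmaip1 without these (0.181 and 0.105) or day 14 replicate 3 (0.0657).

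Inflammatory mediators rose in 4 of 24 cases and fell in 1, with a median of 0.47, where 3.04% of all genes rose and 3.6% fell. The counts of interferon-stimulated genes given below were near these shares. After Lcn2, the smallest p was that of Selp, P-selectin of platelets and endothelium, which rose from 2.20 ± 0.424 to 5.91 ± 1.51 CPM with no overlap (adjusted p = 0.00497). The fall was Ptgs2, cyclooxygenase 2, named because it was the only one (-1.56), and no member fell without day 10 replicate 2, day 10 replicate 3, day 14 replicate 1 or day 14 replicate 2. The rises numbered 2 without day 10 replicate 1, day 10 replicate 2 or day 14 replicate 3. Of 27 interferon-stimulated genes, 1 fell, Rsad2, the antiviral enzyme viperin (-1.59 ± 0.44, adjusted p = 0.0276), and 1 rose, Cxcl9, a chemokine at or below 1.38 CPM in all 6 libraries (adjusted p = 0.0457). Rsad2 lost its call without replicate 2 of either day or without day 14 replicate 3 (0.101 to 0.194), and Cxcl9 without any one library except day 14 replicate 2 (0.0682 to 0.178), and 3 interferon-stimulated genes fell without day 10 replicate 3. Of 17 circadian genes, 2 rose: Nfil3, a repressor of D-box genes, from 17.999, 16.8 and 32.1 CPM to 56.3, 60.7 and 82.7 CPM (1.58 ± 0.24, adjusted p = 0.000244), and Per1, a core clock repressor (1.52 ± 0.43, adjusted p = 0.0308). Per1 lost its call without day 10 replicate 1 or replicate 2 or without day 14 replicate 2 or replicate 3 (0.0881 to 0.150), and the labels do not state the hour of sampling. Of 19 erythroid genes, 2 were called lower, among them Slc4a1 described above, and 18 lay below 0. Their median change was -0.95, and -0.44 without both replicates numbered 2. The erythroid falls numbered 1 without day 10 replicate 1, day 10 replicate 2 or day 14 replicate 2 and 5 without day 14 replicate 1. The summed erythroid level was 6796 to 17214 CPM at day 10 and 2964 to 9837 CPM at day 14, with overlap, and the part of blood content in the other results was not tested.

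In several lists no gene was called by edgeR's quasi-likelihood test. They were the nuclear-encoded respiratory chain (30 tested, median -0.36), mitochondrially encoded genes (13, median 0.02), cytosolic ribosomal proteins (37, median -0.53), cholesterol synthesis and uptake (23, median 0.41), and the markers of lymphocytes (19, median -0.58) and of skeletal muscle, heart, thymus, neural and cartilage tissue. Ribosomal protein genes were below 0 in 36 of 37 cases, and their summed level was 33745 CPM in day 10 replicate 2 against 15254 to 22677 CPM in the other 5 libraries. Over the 158 genes of these lists, 54 had an unadjusted p under 0.05, and DESeq2 and limma-voom called 9 and 2 of them.

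**Figure D2:**
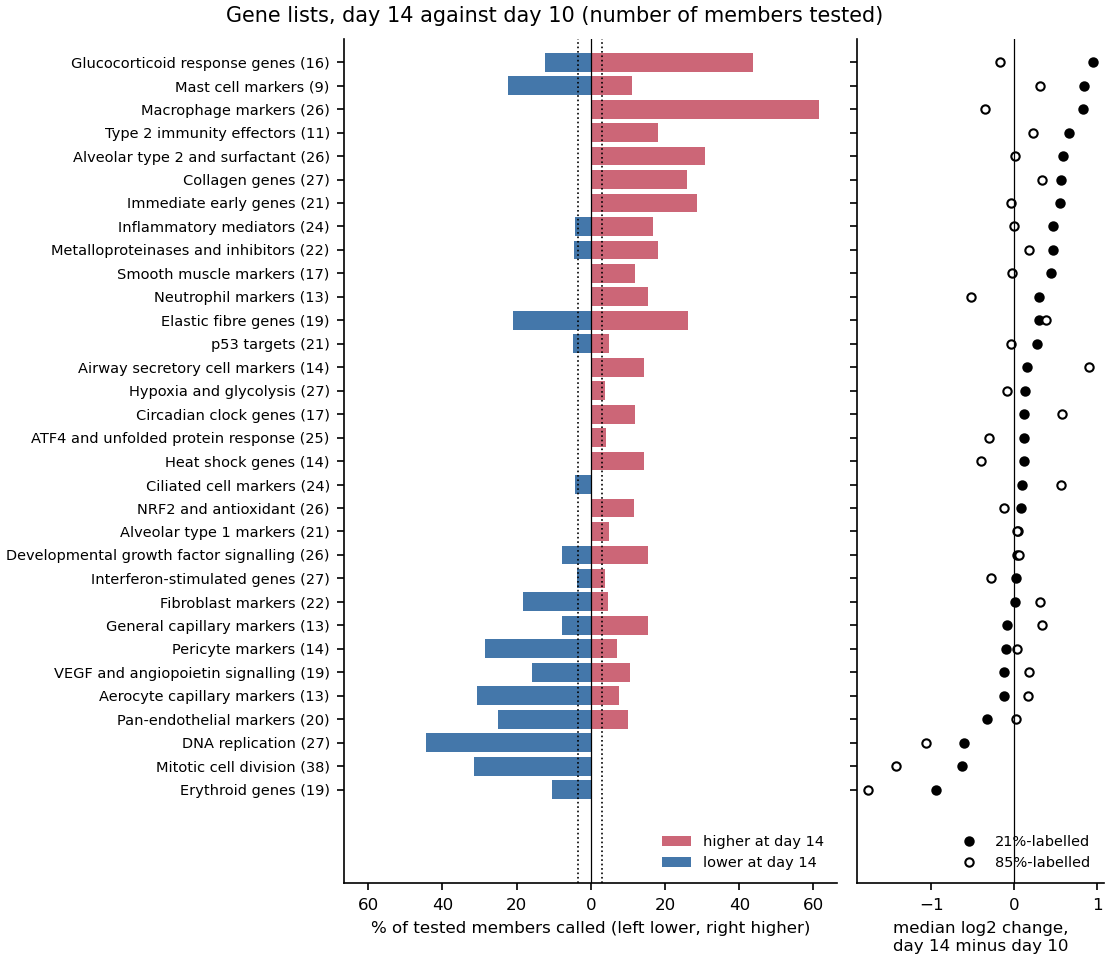
Left, the percentage of tested members of each of 32 gene lists called higher (red, to the right) or lower (blue, to the left) at day 14 in the 21%-labelled arm, with dotted lines at the shares over all genes, 3.04% and 3.6%. Right, the median log2 change of each list in the 21%-labelled (filled) and 85%-labelled (open) arm: macrophage markers stand at 0.83 and -0.35, and mitotic genes at -0.62 and -1.43.

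The same interval in the 85%-labelled arm gave 1092 called genes (6.21% of those tested), of which 293 rose (1.67%) and 799 fell (4.55%), and between 423 and 2257 when 1 of its 6 libraries was left out, the fewest without day 10 replicate 2 and the most without day 10 replicate 1. That comparison shares no library with the one above. In both, 203 genes were called, 17.4% of the calls in the 21%-labelled arm and 18.6% of those in the 85%-labelled arm. Of these, 22 rose in both, 137 fell in both and 44 moved in opposite directions. A test of the difference itself, the change in the 21%-labelled arm minus that in the 85%-labelled arm, called 666 genes (3.79%), 339 positive (1.93%) and 327 negative (1.86%). It called 385 of the 1166 genes, or 33.0%, and the other 781 were not shown to differ between the arms. The 1166 were chosen by the change in the 21%-labelled arm, which is also part of this difference. A share above the 3.79% of all genes is therefore partly built in. Without 85%-labelled day 10 replicate 2 the difference was called for 398 genes and without 85%-labelled day 14 replicate 2 for 402, and with both 21%-labelled replicates numbered 2 left out for 373.

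Among genes with a symbol that is no placeholder and whose mean log2 CPM reached 3, the 5 positive differences with the smallest p were those of Jak3, Chia, Basp1, Retnla and Ggcx. Jak3, the kinase of the common gamma chain receptors, stood at 24.8, 26.6 and 26.7 CPM at day 10 and at 45.9, 62.7 and 49.2 CPM at day 14 in the 21%-labelled arm. It rose by 1.01 ± 0.13 there and fell by 0.53 in the 85%-labelled arm, a difference of 1.54 (adjusted p = 3.45e-05). Chia rose by 4.88 in the 21%-labelled arm, while its change in the 85%-labelled arm was -1.66 and not called, a difference of 6.54 (adjusted p = 3.45e-05). Retnla fell by 3.15 in the 85%-labelled arm, from a mean of 18.7 to 2.09 CPM, a difference of 6.47 (adjusted p = 8.17e-05). Basp1, a membrane-bound signalling protein, stood at 172, 172 and 168 CPM at day 14, the tightest of these, after 56.7, 59.6 and 93.1 CPM at day 10, and differed by 2.60 (adjusted p = 7.67e-05). Ggcx, the vitamin K-dependent carboxylase, differed by 0.93 (adjusted p = 0.000194), with changes of 0.50 and -0.44 that each missed the size threshold. Each of the 5 was called for the difference on leaving out any one of the 12 libraries.

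Under the same limit on level, the 5 negative differences with the smallest p were those of Prx, Adra2b, Krt76, Unc79 and Fgfr4. Prx went from a mean of 156 ± 58.3 to 37.5 ± 10.2 CPM in the 21%-labelled arm and from 213 to 297 CPM in the 85%-labelled arm, a difference of -2.54 (adjusted p = 3.37e-05). Krt76 changed in opposite directions: it fell in the 21%-labelled arm and rose by 2.25 in the 85%-labelled arm, from 10.6 to 50.3 CPM, a difference of -4.30 (adjusted p = 7.63e-05). Adra2b was lower at day 14 in the 21%-labelled arm and changed by -0.28 in the other, a difference of -2.64 (adjusted p = 3.45e-05). Unc79, a subunit of the sodium leak channel complex, stood at 35.6, 22.8 and 37.0 CPM and then at 11.2, 10.8 and 13.03 CPM, and differed by -2.11 (adjusted p = 0.000312). Fgfr4 differed by -2.43 (adjusted p = 0.000312), with a change of 0.49 in the 85%-labelled arm that was not called. These 5 were also called for the difference without any one of the 12 libraries.

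By list, the difference was called for 10 of 26 macrophage markers, all positive, where 1.93% of all genes were called positive and 1.86% negative. The median change of the macrophage markers was 0.83 in the 21%-labelled and -0.35 in the 85%-labelled arm. Mt2A differed by 4.28 (adjusted p = 0.000420) and Hsd11b2 by -4.07 (adjusted p = 1.87e-05), with calls in opposite directions in the arms for both; Hsd11b2 lay under that limit on level. Of the mitotic genes, 35 of 38 fell in the 85%-labelled arm with a median of -1.43, and the difference was called for 5, all positive, that is a smaller fall in the 21%-labelled arm. Of 19 erythroid genes, 11 fell in the 85%-labelled arm, among them Slc4a1 by 2.62, with a median of -1.76. The difference was called for none of them. Of the collagen genes 6 differed, all positive, and of the elastic fibre genes 2 were positive and 4 negative. Eln rose in both arms, by 0.89 and 0.75, and its difference of 0.14 ± 0.21 (SE) did not pass (adjusted p = 0.861). Esm1 was also called higher in both arms, by 3.93 and 1.67, the latter from a mean of 2.63 to 8.46 CPM. Its difference of 2.26 ± 0.66 did not pass (adjusted p = 0.0553, edgeR's quasi-likelihood test).

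**Figure D3:**
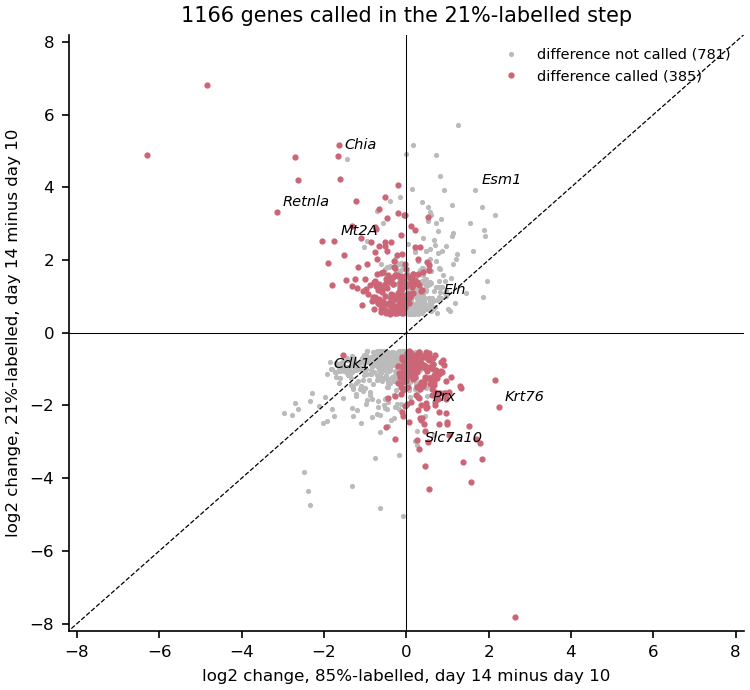
Log2 change from day 10 to day 14 in the 85%-labelled arm (horizontal) and in the 21%-labelled arm (vertical) for the 1166 genes called in the latter, with red for the 385 whose difference between arms was called and a dashed line of equal change. Chia, Retnla and Mt2A lie at upper left, Prx, Slc7a10 and Krt76 at lower right, Eln near the line, and the gap around 0 on the vertical axis is the size threshold of 0.5.

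The preceding interval of the same arm, day 7 to day 10, shares the day 10 libraries, so its values are only set beside those above. It gave 506 called genes (2.88% of those tested), 260 higher (1.48%) and 246 lower (1.4%) at day 10, and between 75 and 1335 when any one of its 6 libraries was left out, the fewest without day 7 replicate 2 (76 without day 7 replicate 3) and the most without day 10 replicate 3. By list, 6 of 26 macrophage markers rose from day 7 to day 10, with a median of 0.77. Of 24 inflammatory mediators 6 rose and 1 fell (median 1.06), and 9 of 21 p53 targets rose (median 0.71). No gene of the mitotic, type 2 cell or collagen lists was called there, with medians of -0.07, 0.15 and -0.08. Lypd1 rose in that interval by 2.15 and Mt2A by 2.17, and C1qb, Lcn2 and Nrn1 also rose, by 1.01, 1.72 and 2.26. Gucy1a1, Gucy1b1, Nrp1 and Wnt2 had already changed by -0.74, -0.61, -0.60 and -0.94 from day 7 to day 10, and Unc79 by -0.995. The mean of Kit went from 285 CPM at day 7 to 70.8 CPM at day 10 and 36.2 CPM at day 14. Chia, Esm1, Retnla, Prx and Slc7a10 had not passed there, with changes of 0.10, 0.68, 1.28, -0.33 and -0.21. Chia had stood at 274 ± 30.3 CPM at day 1, 51.2 ± 25.6 CPM at day 3 and 11.5 ± 5.94 CPM at day 7 in the 21%-labelled arm. Its day 14 mean of 365 ± 315 CPM had the widest spread of any day, from libraries at 208, 728 and 159 CPM. Of these, replicate 2 lay above the day 1 mean and the others below it, so the mean rests on replicate 2. Esm1 had means of 13.6, 12.7, 6.38 and 10.2 CPM on the 4 earlier days, all below each of the day 14 libraries.

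**Figure D4:**
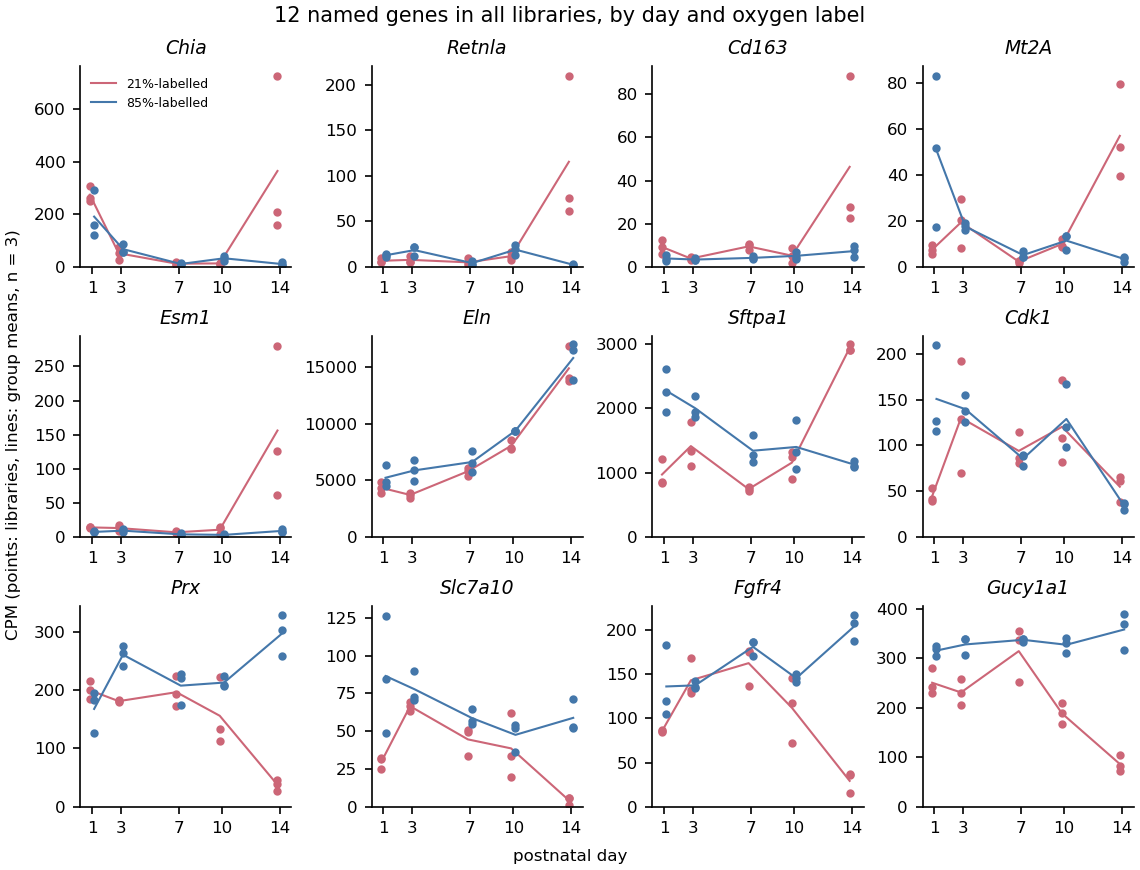
CPM of 12 named genes in all 30 libraries by postnatal day, with red for the 21%-labelled and blue for the 85%-labelled arm, points for libraries and lines for means of 3. In the red points Chia is high at days 1 and 14 and low between, Esm1, Retnla, Cd163 and Sftpa1 rise at day 14, and Prx, Slc7a10, Fgfr4 and Gucy1a1 drop at day 14 while the blue points do not.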

How the data were processed

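Lung RNA of 30 libraries was sequenced after RNeasy extraction and SMARTer library preparation, per the labels' protocols. The authors deposited raw read counts per gene, and per the submitters' processing notes the builds are GRCm38 and mm10, which are mouse builds, although 32883 of the 35224 gene IDs are rat Ensembl IDs and 2341 are IDs of the authors' own. Aligner, counter and strand setting are not stated in the labels. In the same deposited table, 30 FPKM columns and 65 columns of the authors' comparisons were not used.

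Counts were filtered with filterByExpr (17571 genes kept), scaled by TMM and fitted with edgeR 4.0.16 (glmQLFit, robust; R 4.3.3) over 30 libraries in 10 groups of 3, with 20 residual degrees of freedom. Each standard error is an approximation, the size of the log2 change over the root of its F value. DESeq2 1.42.0 and limma-voom (limma 3.58.1) were alternatives, with other filters, scalings, covariates, a replicate block and each library left out. On simulated data for this comparison (17307 genes), edgeR called 42 of 100 genes given a log2 change of 1, 82 of 100 given 2, and 3 unchanged genes.

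The genes named were the 10 largest rises and falls among the 744 called genes whose days did not overlap, whose mean log2 CPM was 3 or more and whose symbol was not a placeholder, up to 4 called members with the smallest p in each list, the 5 genes of each sign with the smallest p for the difference between arms, and 7 fixed genes; 1 gene that these rules name is not reported here. The comparison, the lists and these rules were chosen with earlier results of these data known. Among the 6 libraries compared, no pair of the same day was a duplicate deposit, since their counts differed by more than sampling noise. Other pairs of libraries were not checked.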

Additional observations from a re-analysis of the deposited data

Results flagged for a closer look

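The change from day 10 to day 14 differed between the arms, by an interaction term in edgeR's quasi-likelihood test, for 666 genes, and 52 of the genes named above are among them. Most of these were named for their change in the 21%-labelled arm, a part of this difference, or for the difference itself. Their number therefore follows in part from that choice. Differences are given as the log2 change in the 21%-labelled arm minus that in the 85%-labelled arm, and all passed an adjusted p under 0.05.

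Among macrophage and immune genes the difference was positive for Chia (6.54), Retnla (6.47), Lcn2 (3.07), Cd163 (2.66), C1qb (1.75), Jak3 (1.54) and Mrc1 (1.41), and negative for Kit (-1.43) and Gata2 (-1.25). Among matrix genes it was positive for Adamts4 (2.28), Plod2 (1.80), P4ha2 (1.34), Col18a1 (1.29), Adamts1 (1.27), Bgn (0.87) and Ltbp2 (0.79), and negative for Mfap2 (-1.29) and Fbln5 (-1.09).

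Among vascular genes it was positive for Pgf (2.17), Edn1 (1.87), Lpl (1.61) and Fibin (0.88), and negative for Adra2b (-2.64), Prx (-2.54), Cox4i2 (-1.55), Gucy1a1 (-1.26), Kdr (-1.20), Nrp1 (-1.11) and Cdh5 (-0.84). Among signalling, stress and metabolic genes it was positive for Mt2A (4.28), Frzb (4.06), Cfi (3.28), Lypd1 (2.83), Kng1 (2.61), Basp1 (2.60), Egr1 (2.0), Hsph1 (1.88), Sftpa1 (1.66), Nfil3 (1.60), Gpx3 (1.33), Lmod1 (1.16), Ggcx (0.93) and Fgf10 (0.90). It was negative there for Krt76 (-4.30), Hsd11b2 (-4.07), Slc7a10 (-3.49), Lrrn3 (-2.52), Fgfr4 (-2.43), G0s2 (-2.42), Unc79 (-2.11), Wnt2 (-1.34) and Enpep (-0.84).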

How the results depend on the processing

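The count of 1166 genes was within 1.5 times under DESeq2 (1511), limma-voom (1211), other scaling (1156), no low-count filter (985) and a stricter filter (1141). It was 2333 with the mitochondrial share as a covariate, 574 at a size of 1, 34 with only the groups compared, 269 without both replicates numbered 2 (an alternative chosen after seeing the data), and 514 to 1695 with 1 library left out. The difference between arms gave 1042 genes with DESeq2, 385 with only the groups compared, 1470 with the mitochondrial covariate, 1009 with gene length as a covariate, 1009 without libraries above 6% mitochondrial counts, 373 without both replicates, and 398 to 776 with 1 library left out. In the 85%-labelled arm the count was 694 with only the groups compared, 642 with the length covariate, 484 at a size of 1, and 423 to 2257 with 1 library left out. From day 7 to day 10 it was 1039 with DESeq2, 0 with only the groups compared (3383 genes at an unadjusted p under 0.05), 1016 with the mitochondrial covariate, 186 with the length covariate, 1169 without libraries above 6% mitochondrial counts, 231 without both replicates, 205 at a size of 1, and 75 to 1335 with 1 library left out. Sftpc, not called, ranged from -0.003168 without day 10 replicate 3 to 0.6555 without day 10 replicate 2. The cause of these shifts was not tested.

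Same-numbered libraries correlated at -0.125, -0.284 and -0.125 in their deviations from the day means, and differently numbered ones at -0.157 to 0.270. With 3 libraries a day, some of which stand apart, these values cannot tell whether a number marks a shared litter or batch. With a replicate block and only the groups compared, edgeR's quasi-likelihood test called 0 genes here (1652 at an unadjusted p under 0.05; the block over 30 libraries called 1049), 0 from day 7 to day 10 (3138 at an unadjusted p under 0.05), 127 in the 85%-labelled arm and 178 for the difference. No named gene reversed while called. With 3 libraries a day the simulated recovery of changes of size 1 was 42 of 100, so many changes of that size were missed there. The simulation drew independent libraries around 1 mean per gene, without libraries that stand apart. It therefore sets no limit on the sizes detectable in the real libraries, where the median size of a called change was 0.99.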
